A study of Mus musculus with 16 samples.

Results

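The 10 genes described here carry the calcium cycle of the heart muscle cell: Ryr2, Atp2a2, Pln, Casq2, Cacna1c, Slc8a1, Jph2, Camk2b, Camk2d and Camk2g. They were taken by gene symbol from a table of 36499 gene entries, in which each of the 10 symbols stood once. All 10 were among the 15255 genes with enough counts to be tested. Mouse cardiac tissue of 4 genotypes was sequenced, at 4 libraries per genotype. Double KO mice lacked both Clpp and Fgf21, Clpp KO mice lacked Clpp, Fgf21 KO mice lacked Fgf21, and wild-type mice had both genes. Clpp encodes the proteolytic subunit of a mitochondrial protease, while the product of Fgf21 is a hormone released by tissues under metabolic stress. Per the labels' protocols, deletion was ubiquitous, since floxed alleles (Clpp fl/fl, or Clpp fl/fl with Fgf21 fl/fl) were recombined by Cre under the β-actin promoter. A change in cardiac tissue therefore need not start in the heart, and the protocols do not say how mice lacking Fgf21 alone were made. All mice were kept on normal chow, and age and sex are not given. Libraries of a group carry repeat numbers in the labels, which do not tie them to separate animals. The p-values thus speak only for the spread among libraries, part of which may be technical.

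In a heartbeat, calcium enters the muscle cell through the L-type channel and opens the ryanodine receptors of the sarcoplasmic reticulum, which release the larger part of the calcium that starts contraction. For relaxation, the pump SERCA2a returns calcium to the sarcoplasmic reticulum and the sodium-calcium exchanger removes it across the surface membrane. Phospholamban restrains the pump, and the kinase CaMKII adjusts release, uptake and entry by phosphorylating proteins of each step.

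The libraries held 36260545 to 51820727 counts. Clpp held 267 to 293 counts in double KO and 308 to 355 in Clpp KO, against 1435 to 2636 in Fgf21 KO and 1728 to 2108 in wild type. Fgf21 had 0 counts in the 8 libraries lacking it, 6 to 28 in Clpp KO and 0 to 5 in wild type. Transcripts encoded in mitochondrial DNA took 56.1% to 60.8% of the counts in double KO and 56.6% to 60.0% in Clpp KO, against 29.2% to 38.8% in Fgf21 KO and 25.5% to 39.4% in wild type. Levels are therefore given as CPM (counts scaled to a common library total) with totals rescaled by TMM, a trimmed mean of the ratios between libraries. The tissue carried high cardiomyocyte markers in each library (6 genes summing to 18220 to 39204 CPM), and 7 skeletal muscle genes summed to at most 3.50 CPM. Wild-type replicates 2 and 4 stood apart. Myl7, the atrial myosin light chain, reached 1729 and 1338 CPM there, beside 1.21 and 1.16 CPM in replicates 1 and 3 of the same genotype. It ran from 0.289 to 247 CPM in double KO, from 3.55 to 496 CPM in Clpp KO and from 44.9 to 465 CPM in Fgf21 KO. In bulk tissue, fewer cells of a type and less RNA per cell cannot be told apart.

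Relative to gene length the 10 genes spanned 3 orders of magnitude. Pln had a median of 1162 CPM per kilobase of exon over the 16 libraries and Atp2a2 had 983. Casq2, at 177, and Jph2, at 69.6, came next, ahead of Ryr2 at 16.6, Slc8a1 at 8.05 and Cacna1c at 6.92. By exon length the CaMKII genes closed the order, with 4.85 for Camk2g, 3.66 for Camk2d and 0.939 for Camk2b. Some neighbours were close: Pln exceeded Atp2a2 in 12 of 16 libraries and Slc8a1 exceeded Cacna1c in 14 of 16. The order of the lower genes depended on the gene model, since 8 of 10 kept their rank when the length of the longest transcript replaced the union of exons. By the longest transcript, Camk2d had a median of 14.9, above Cacna1c at 11.1, Camk2g at 8.39 and Slc8a1 at 8.20. The place of the CaMKII genes, and of Camk2g above Camk2d, therefore did not hold for both lengths. CPM per kilobase sets levels of different genes side by side, whereas the CPM of single genes below is compared between libraries. Shares and ratios of counts between genes, also given below, are not scaled by gene length.

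Camk2b was the only one of the 10 whose level passed the test in any comparison, and it was lower wherever Clpp was missing. It encodes the β subunit of CaMKII, best known from the brain. Camk2b stood at 7.42, 5.95, 7.89 and 6.51 CPM in double KO libraries. In Clpp KO it stood at 7.93, 7.02, 5.52 and 7.16 CPM, in Fgf21 KO at 10.8, 12.2, 9.21 and 11.2 CPM, and in wild type at 10.4, 10.1, 10.8 and 11.7 CPM. The highest of the 8 libraries without Clpp lay below the lowest of the 8 with Clpp. The share of all genes that part these 8 libraries from the other 8 was not counted, so how unusual this is remains unknown. The 4 wild-type libraries were close to each other, and replicates 2 and 4 did not stand apart for Camk2b.

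In Clpp KO versus wild type, Camk2b fell by 0.64 ± 0.13 on the log2 scale (edgeR quasi-likelihood test, Benjamini-Hochberg adjusted p = 0.0158, 95% interval −0.90 to −0.37), with group means of 6.91 ± 1.01 and 10.7 ± 0.714 CPM (SD, n = 4 each). It was 1 of 249 genes called, meaning an adjusted p under 0.05, and calls made up 1.63% of the genes tested. Its 2 groups did not overlap, as was the case for 13.7% of the genes tested. Fgf21 KO formed the second background for the loss of Clpp. When double KO was set against that background, Camk2b fell by 0.64 ± 0.13 (adjusted p = 0.0162), with means of 6.94 ± 0.872 and 10.8 ± 1.25 CPM. In this comparison 0.892% of genes were called, and the groups did not overlap for 5.8% of genes. Relative to wild type, Camk2b in double KO fell by 0.63 ± 0.13 (adjusted p = 0.0184), with 1.53% of genes called and no overlap between groups for 9.85% of genes. These comparisons share groups and are not independent of each other.

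The loss of Fgf21 left Camk2b with differences near 0. The log2 difference was 0.01 in Fgf21 KO versus wild type (95% interval −0.25 to 0.28, adjusted p = 0.974), where 0.0459% of genes were called. It was 0.01 in double KO versus Clpp KO (95% interval −0.26 to 0.28, adjusted p = 0.998), where 0.059% were called. The interaction, which subtracts the difference between Fgf21 KO and wild type from that between double KO and Clpp KO, was −0.01 for Camk2b (95% interval −0.38 to 0.37, adjusted p = 1.0). The interaction called 0% of the genes by edgeR, with 299 genes at an unadjusted p under 0.05, while DESeq2 called 3 and limma voom 1.

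**Figure D1:**
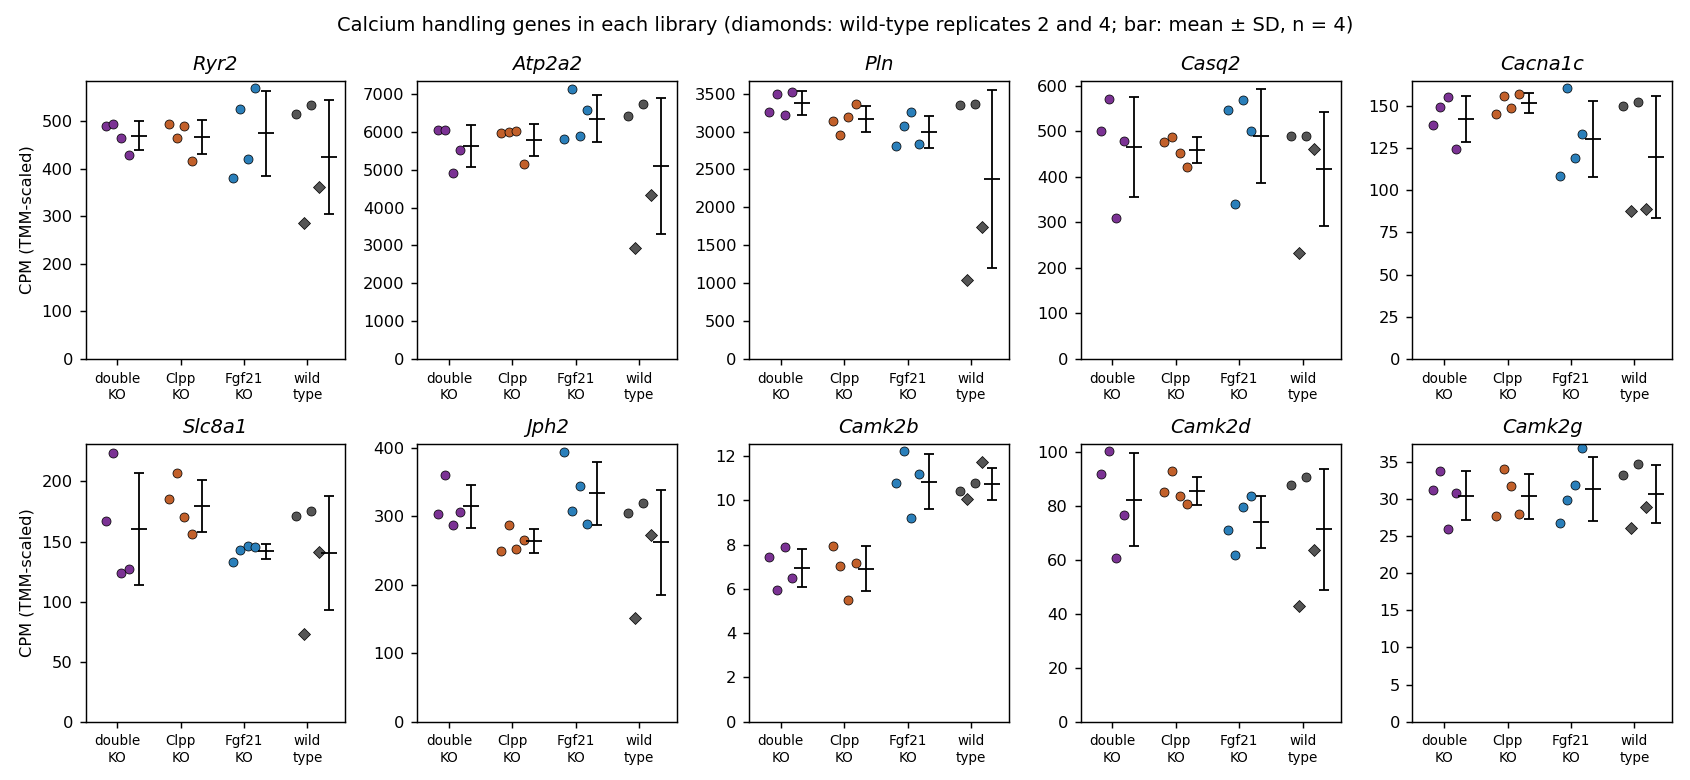
Level of each of the 10 genes in each library, in TMM-scaled CPM on linear axes from 0, by genotype; points are libraries, diamonds are wild-type replicates 2 and 4, and bars give the mean and SD of 4 libraries. Camk2b runs from 5.52 to 7.93 CPM in the 8 libraries without Clpp and from 9.21 to 12.2 CPM in the 8 with it. Wild-type replicate 2 is the lowest library for 8 of the 10 genes.

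The Camk2b calls stood close to the threshold in several edgeR fits and further from it with DESeq2. DESeq2 gave adjusted p = 0.000389 in Clpp KO versus wild type, 0.000451 in double KO versus wild type and 0.000236 in double KO versus Fgf21 KO, and limma voom gave 0.000273, 0.00491 and 0.042 in the same order. In Clpp KO versus wild type the call ended without Clpp KO replicate 3 (log2 difference −0.54, adjusted p = 0.0623) and without wild-type replicates 2 and 4 together (−0.61, adjusted p = 0.0639). In double KO versus wild type it ended without wild-type replicate 4 (−0.59, adjusted p = 0.052), without double KO replicate 2 (−0.56, adjusted p = 0.0694), without double KO replicate 4 (−0.60, adjusted p = 0.0609) and without wild-type replicates 2 and 4 (−0.61, adjusted p = 0.0713). In double KO versus Fgf21 KO it ended without Fgf21 KO replicate 1, 2 or 4 (adjusted p = 0.0501, 0.0615 and 0.0591) and without double KO replicate 2 or 4 (adjusted p = 0.0809 and 0.0657), with log2 differences of −0.65 to −0.58. The direction did not change in any of these fits. With library totals alone in place of TMM, the median of all genes moved to −0.79 in Clpp KO versus wild type, −0.70 in double KO versus Fgf21 KO and −0.92 in double KO versus wild type. Camk2b stood below those medians, at −1.39, −1.34 and −1.54.

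Summed levels are given for marker lists of 4 other cell types that the heart holds, beginning with nerve cells and Schwann cells; several of their ranges overlapped between groups. The 7 genes of that list summed to 8.48 to 11.7 CPM in double KO and 7.84 to 10.03 CPM in Clpp KO, against 11.5 to 15.8 CPM in Fgf21 KO and 12.7 to 31.7 CPM in wild type. The double KO and Fgf21 KO sums overlapped. Of the 5 list members that passed the filter, 1 was called by edgeR in Clpp KO versus wild type. All 5 had an unadjusted p under 0.05 there, beside 21.3% of all genes. In double KO versus wild type none was called and 4 had such a p, beside 22.8% of all genes. In double KO versus Fgf21 KO none was called and 0 had such a p, beside 7.09% of all genes. The gene called in Clpp KO versus wild type was Stmn2, a neuronal microtubule regulator, which fell by 1.54 ± 0.29 on the log2 scale (adjusted p = 0.00992). Stmn2 differed by −0.29 ± 0.28 in double KO versus Fgf21 KO (adjusted p = 0.873). The wild-type range was widest because replicates 2 and 4 reached 31.2 and 31.7 CPM, whereas Camk2b was at 10.1 and 11.7 CPM in them and at 10.4 and 10.8 CPM in replicates 1 and 3. Wild-type replicates 2 and 4 had none of the 7 markers at 0 counts, and each other library had 1 or 2. Smooth muscle markers (5 genes) summed to 167 to 294 CPM in double KO and 213 to 337 CPM in Clpp KO, against 215 to 434 CPM in Fgf21 KO and 275 to 1113 CPM in wild type. Conduction system markers (6 genes) summed to 13.8 to 22.3 CPM in double KO and 13.01 to 19.5 CPM in Clpp KO, against 19.9 to 37.6 CPM in Fgf21 KO and 16.1 to 57.3 CPM in wild type. The 6 adipocyte markers summed to 213 to 489 CPM in double KO and 177 to 272 CPM in Clpp KO, against 283 to 472 CPM in Fgf21 KO and 301 to 661 CPM in wild type. Of the 6, 4 were at 0 counts in Clpp KO replicate 4 and in double KO replicate 4, so those sums rest on few genes. At most 1 was at 0 counts in any Fgf21 KO or wild-type library. In double KO versus Fgf21 KO the median log2 differences of these lists were −0.66, −0.54 and −2.05, beside −0.54 for the nerve list, and none of their tested genes was called by edgeR. Lists of other cell types did not all run lower. There the median was 0.26 for macrophages, 0.81 for red blood cells, −0.02 for fibroblasts and −0.17 for endothelial cells. In Clpp KO versus wild type these were 0.16, −1.65, −0.22 and −0.20, with 1 endothelial gene called lower. The smooth muscle, conduction system, adipocyte and nerve lists had lower medians there than in double KO versus Fgf21 KO. They were −1.301, −1.109, −3.315 and −1.154 in that order. Of the tested genes, 4 of 5 for smooth muscle, 2 of 5 for conduction and 3 of 5 for adipocytes had an unadjusted p under 0.05. None of these was called by edgeR. The part of any of these cell types in the Camk2b difference was not tested.

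Within the CaMKII family the share of Camk2b averaged less in the libraries without Clpp, a difference that was not tested. Camk2b made up 5.69%, 4.25%, 8.34% and 5.71% of the summed counts of Camk2b, Camk2d and Camk2g in double KO and 6.57%, 5.24%, 4.56% and 6.18% in Clpp KO. It made up 9.93%, 11.7%, 7.63% and 8.48% in Fgf21 KO and 7.91%, 12.7%, 7.91% and 11.2% in wild type. Double KO replicate 3, at 8.34%, overlapped the groups with Clpp. Camk2d, the main cardiac CaMKII gene, took 68.4% ± 3.30 in double KO, 69.7% ± 0.571 in Clpp KO, 63.6% ± 2.91 in Fgf21 KO and 62.2% ± 5.98 in wild type. Its share was higher by 7.52 percentage points in Clpp KO than in wild type, and the groups did not overlap. That difference had p = 0.0286 by an exact two-sided permutation test, the smallest p that 4 libraries against 4 allow, and did not pass after adjustment (p = 0.19 over 20 tests). Much of it came from wild-type replicates 2 and 4, with Camk2d shares of 54.2% and 61.0%. Replicates 1 and 3 were at 66.8% and 66.7%, and the lowest Clpp KO library at 69.2%. For Camk2b, replicates 2 and 4 had the 12.7% and 11.2% given above, and replicates 1 and 3 the 7.91%. Camk2g took 25.6% ± 1.84, 24.7% ± 1.44, 26.9% ± 1.82 and 27.9% ± 3.66 in double KO, Clpp KO, Fgf21 KO and wild type. These shares need no scaling between libraries, and no stretch of 31 bases was common to the transcripts of the 3 genes.

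**Figure D2:**
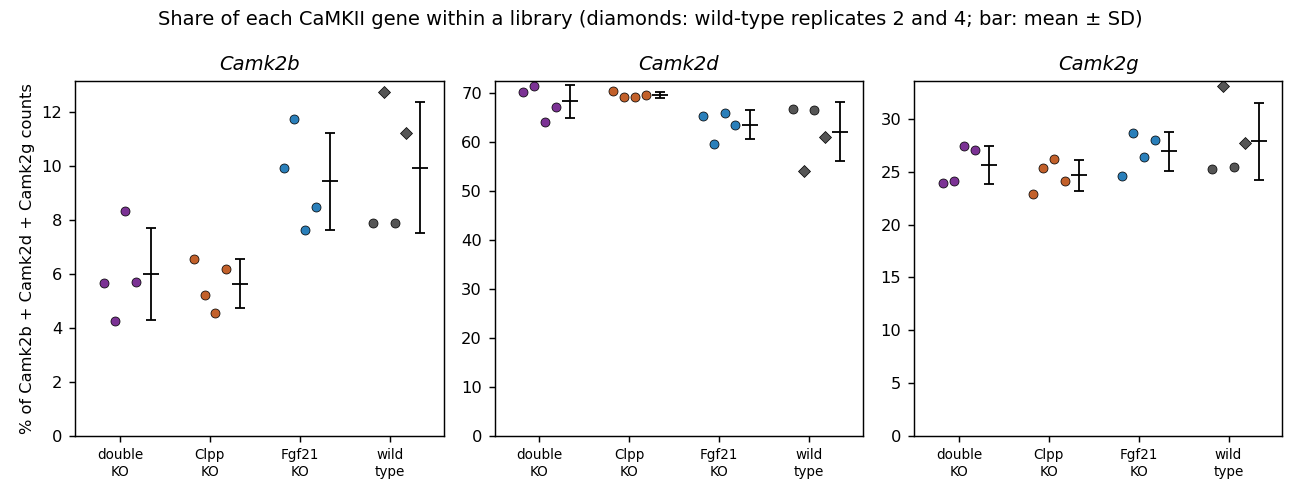
Share of Camk2b, Camk2d and Camk2g in their summed counts, in percent, for each library by genotype; diamonds are wild-type replicates 2 and 4, and bars give the mean and SD of 4 libraries. The Camk2b share averages 5.995% in double KO and 5.64% in Clpp KO, against 9.45% in Fgf21 KO and 9.95% in wild type.

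The levels of Camk2d and Camk2g themselves did not pass the test. Camk2d was at 91.8, 100.2, 60.8 and 76.7 CPM in double KO, 85.2, 92.9, 83.7 and 80.9 CPM in Clpp KO, 71.0, 62.0, 79.6 and 83.6 CPM in Fgf21 KO, and 87.9, 42.8, 90.8 and 63.7 CPM in wild type. Its log2 difference was 0.26 ± 0.20 in Clpp KO versus wild type (adjusted p = 0.446) and 0.15 ± 0.20 in double KO versus Fgf21 KO (adjusted p = 0.907). Camk2g, which encodes the γ subunit, varied least of the 10 genes, with a coefficient of variation of 10.7% over 16 libraries. It ran from 25.9 to 33.8 CPM in double KO, 27.7 to 34.01 in Clpp KO, 26.7 to 36.9 in Fgf21 KO and 26.1 to 34.7 in wild type. Its 95% intervals reached from −0.28 to 0.24 in Clpp KO versus wild type and from −0.30 to 0.22 in double KO versus Fgf21 KO. Camk2a, the α subunit gene, was chosen after its values were seen as the remaining gene of the family. Its log2 difference was 0.14 ± 0.13 in Clpp KO versus wild type (adjusted p = 0.53) and 0.11 ± 0.13 in double KO versus Fgf21 KO (adjusted p = 0.894).

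Camk2b lies on chromosome 11 at 5969644 to 6066362, minus strand, and Camk2d on chromosome 3 at 126596302 to 126846326, plus strand (GRCm38). The 250 bases upstream of the RefSeq start of each (build GRCm38.p6) are shown because the first gene passed the test and its main cardiac relative did not. Both windows lie inside the gene spans just given, which come from GENCODE and begin further upstream. Capitals mark the GC box GGGCGG on either strand, with overlapping matches counted.
Camk2b, chr11:6065749-6065998, minus strand: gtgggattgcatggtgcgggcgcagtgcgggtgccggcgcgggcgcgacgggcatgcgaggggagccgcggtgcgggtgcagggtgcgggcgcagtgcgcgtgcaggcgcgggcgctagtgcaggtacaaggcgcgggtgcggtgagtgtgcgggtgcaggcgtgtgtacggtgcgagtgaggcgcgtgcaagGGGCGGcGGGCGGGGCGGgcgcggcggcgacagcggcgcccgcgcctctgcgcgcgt
Camk2d, chr3:126596701-126596950, plus strand: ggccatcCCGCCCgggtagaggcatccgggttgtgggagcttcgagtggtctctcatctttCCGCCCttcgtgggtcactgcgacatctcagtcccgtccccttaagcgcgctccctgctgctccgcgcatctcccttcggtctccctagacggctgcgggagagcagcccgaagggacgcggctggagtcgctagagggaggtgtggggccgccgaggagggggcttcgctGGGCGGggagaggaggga
Both windows hold 3 matches to the GC box, which 32.7% of 32851 RefSeq windows of this length hold at least once. The Camk2b window is 78.4% G or C with 44 CpG dinucleotides and the Camk2d window 68.4% with 23, against medians of 52.4% and 6 over all windows. Searched on both strands, neither window holds the E-box CANNTG, which 66.2% of all windows hold, or the GATA motif AGATAA, which 9.99% hold. Neither holds the MEF2 core TAAAAATA, found in 2.45%, the CCAAT box, spelled as its name and found in 33.8%, or the core TGACG of the cyclic AMP element, found in 17.8%. The absence of these letters from 250 bases says nothing of the factors. Windows were found for 8 of the 10 genes.

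The genes of calcium release gave no called difference. Ryr2 encodes the ryanodine receptor of the cardiac muscle cell. It was at 489, 494, 465 and 428 CPM in double KO, 494, 464, 490 and 417 CPM in Clpp KO, 380, 526, 419 and 570 CPM in Fgf21 KO, and 514, 286, 533 and 361 CPM in wild type. All groups overlapped, and wild-type replicates 2 and 4 were the lowest of the 16 libraries. The log2 difference of Ryr2 was 0.14 ± 0.18 in Clpp KO versus wild type (adjusted p = 0.671) and −0.01 ± 0.18 in double KO versus Fgf21 KO (adjusted p = 0.993). Casq2 encodes cardiac calsequestrin, which stores calcium in the sarcoplasmic reticulum beside the receptor. It was at 501, 571, 310 and 478 CPM in double KO, 475, 487, 453 and 421 CPM in Clpp KO, 547, 341, 569 and 500 CPM in Fgf21 KO, and 491, 232, 490 and 460 CPM in wild type. A single low library in each of double KO, Fgf21 KO and wild type set its spread. The log2 difference of Casq2 was 0.14 ± 0.23 in Clpp KO versus wild type (adjusted p = 0.75) and −0.07 ± 0.23 in double KO versus Fgf21 KO (adjusted p = 0.96).

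The genes of calcium uptake likewise gave no called difference. Atp2a2 encodes SERCA2, whose cardiac form SERCA2a is the pump of the sarcoplasmic reticulum. It was at 6036, 6056, 4903 and 5510 CPM in double KO, 5973, 5982, 6008 and 5150 CPM in Clpp KO, 5802, 7128, 5894 and 6563 CPM in Fgf21 KO, and 6414, 2919, 6733 and 4324 CPM in wild type. Wild-type replicates 1 and 3 were above all Clpp KO libraries, and replicates 2 and 4 were below them. The log2 difference was 0.18 ± 0.21 in Clpp KO versus wild type (adjusted p = 0.626) and −0.17 ± 0.21 in double KO versus Fgf21 KO (adjusted p = 0.894). Pln encodes phospholamban, the inhibitor of SERCA2a. It was at 3251, 3496, 3218 and 3526 CPM in double KO, 3140, 2951, 3194 and 3369 CPM in Clpp KO, 2813, 3072, 3260 and 2831 CPM in Fgf21 KO, and 3346, 1048, 3363 and 1739 CPM in wild type. The 12 knockout libraries and wild-type replicates 1 and 3 lay within 2813 to 3526 CPM.

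Pln had the largest positive log2 difference of the 10 genes in both comparisons with Clpp loss against wild type. It was 0.51 ± 0.26 in double KO versus wild type (adjusted p = 0.256) and 0.41 ± 0.26 in Clpp KO versus wild type (adjusted p = 0.364). Without wild-type replicates 2 and 4 it was 0.00 in double KO and −0.08 in Clpp KO. The difference of Pln was 0.17 ± 0.26 in double KO versus Fgf21 KO (adjusted p = 0.924). Pln on chromosome 10 (53337667 to 53345987, plus strand) lies inside Cep85l on the other strand. Of the 31-base words in Pln transcripts, 59.5% also occur in transcripts of other genes, read in either direction. The main such gene was Gm47644, which is annotated on the other strand. Cep85l held 225 to 659 counts per library against 69430 to 197521 for Pln, Gm47644 was not analysed here, and the sources used here do not state counting by strand.

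The ratio of inhibitor to pump needs no scaling between libraries. The ratio of Pln to Atp2a2 counts was 0.539, 0.577, 0.656 and 0.640 in double KO, 0.526, 0.493, 0.532 and 0.654 in Clpp KO, 0.485, 0.431, 0.553 and 0.431 in Fgf21 KO, and 0.522, 0.359, 0.500 and 0.402 in wild type. Each double KO library exceeded each wild-type library. On the log2 scale the ratio was higher by 0.45 in double KO than in wild type (−0.73 ± 0.13 against −1.18 ± 0.26; exact permutation, two-sided, p = 0.0286 and 0.19 once adjusted). By the same exact permutation test, the difference was 0.35 in double KO versus Fgf21 KO (p = 0.0571, adjusted p = 0.229) and 0.32 in Clpp KO versus wild type (p = 0.114, adjusted p = 0.286). None of the 20 tests of 4 such ratios in 5 comparisons passed after adjustment, and the smallest p that 4 against 4 libraries allow is 0.0286. Without wild-type replicates 2 and 4, the remaining wild-type ratios were 0.522 and 0.500.

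**Figure D3:**
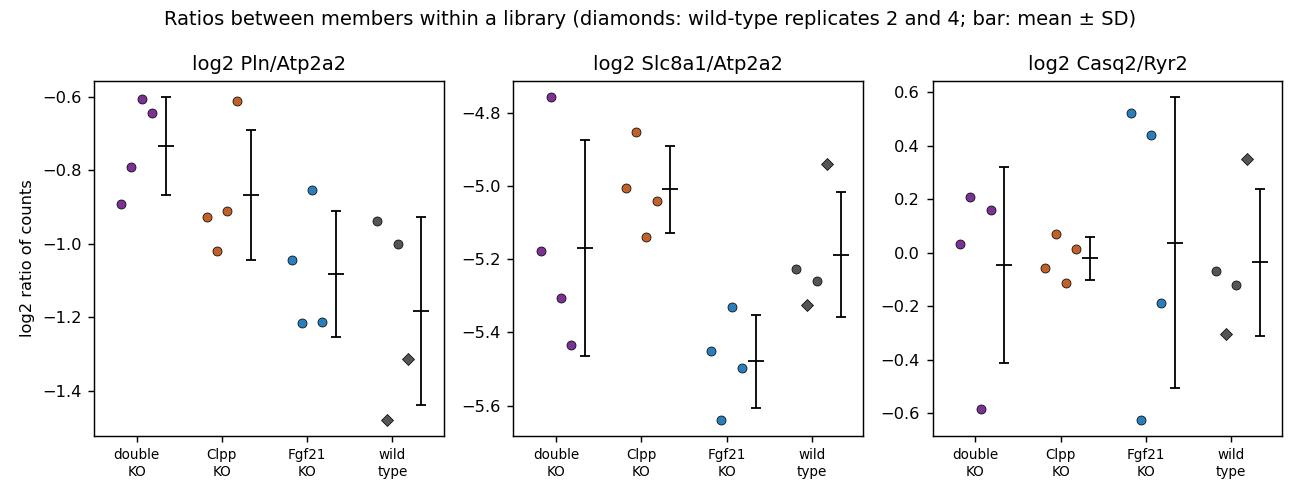
Log2 ratios of counts within each library for Pln to Atp2a2, Slc8a1 to Atp2a2 and Casq2 to Ryr2, by genotype; axes do not start at 0, diamonds are wild-type replicates 2 and 4, and bars give the mean and SD of 4 libraries. Pln to Atp2a2 is highest in double KO (mean −0.73) and lowest in wild type (mean −1.18), and Slc8a1 to Atp2a2 is lowest in Fgf21 KO (mean −5.48).

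Calcium entry and removal at the surface membrane are carried by Cacna1c, the pore of the L-type channel, and Slc8a1, the sodium-calcium exchanger. Cacna1c was at 139, 149, 155 and 124 CPM in double KO, 145, 156, 148 and 157 CPM in Clpp KO, 108, 161, 119 and 133 CPM in Fgf21 KO, and 150, 87.8, 152 and 88.6 CPM in wild type. Clpp KO libraries were tightly grouped, and wild type split into replicates 1 and 3 within the Clpp KO range and replicates 2 and 4 below all Clpp KO libraries. The log2 difference of Cacna1c was 0.34 ± 0.18 in Clpp KO versus wild type (adjusted p = 0.275), and 0.01 without wild-type replicates 2 and 4. Double KO versus Fgf21 KO gave 0.12 ± 0.18 (adjusted p = 0.919). Slc8a1 was at 167, 224, 124 and 127 CPM in double KO, 186, 207, 171 and 156 CPM in Clpp KO, 133, 143, 147 and 145 CPM in Fgf21 KO, and 171, 72.8, 176 and 141 CPM in wild type. Fgf21 KO libraries were tightly grouped, double KO libraries spread widely, and wild-type replicate 2 was the lowest. The log2 difference of Slc8a1 was 0.36 ± 0.23 in Clpp KO versus wild type (adjusted p = 0.369) and 0.18 ± 0.23 in double KO versus Fgf21 KO (adjusted p = 0.907).

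Slc8a1 relative to Atp2a2 sets removal from the cell beside return to the store. The log2 ratio was lower by 0.29 in Fgf21 KO than in wild type (−5.48 ± 0.13 against −5.19 ± 0.17; exact permutation, two-sided, p = 0.0286 and 0.19 once adjusted). These groups nearly touched, with the highest Fgf21 KO library at −5.330 and the lowest wild-type library at −5.326. The same exact permutation test gave a difference of 0.31 in double KO versus Fgf21 KO (p = 0.0571, adjusted p = 0.229) and of 0.18 in Clpp KO versus wild type (p = 0.143, adjusted p = 0.317). For Casq2 relative to Ryr2, the largest of 5 differences was −0.08, in double KO versus Fgf21 KO.

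Jph2 encodes junctophilin 2, which holds the surface membrane and the sarcoplasmic reticulum together at the dyad. It was at 304, 360, 287 and 306 CPM in double KO, 249, 287, 253 and 266 CPM in Clpp KO, 394, 308, 344 and 289 CPM in Fgf21 KO, and 305, 151, 319 and 273 CPM in wild type. The highest Clpp KO library, at 287.2 CPM, lay narrowly below the lowest of double KO (287.4 CPM) and of Fgf21 KO (288.7 CPM). All Clpp KO libraries lay within the range of wild type. Double KO and Clpp KO did not overlap for 5.78% of the genes tested, and the share for Clpp KO and Fgf21 KO was not counted. The log2 difference was 0.25 ± 0.19 in double KO versus Clpp KO (adjusted p = 0.994) and 0.35 ± 0.19 in Fgf21 KO versus wild type (adjusted p = 0.55). In Clpp KO versus wild type it was 0.01 ± 0.19 (adjusted p = 0.983) by edgeR. The limma voom fit with library weights, which counts outlying libraries less, gave −0.25 (adjusted p = 0.0389), so the direction and the call for Jph2 differed between the 2 fits.

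The 10 genes as a group had a median near that of all genes in comparisons that did not involve wild type. Their median log2 difference was −0.03 in double KO versus Fgf21 KO, where the median of all genes was −0.01, and 0.01 in double KO versus Clpp KO, where it was also 0.01. Against wild type the median was 0.17 in double KO with 8 of 10 above 0, 0.16 in Clpp KO with 8 of 10 above 0, and 0.14 in Fgf21 KO with 10 of 10 above 0. The medians of all genes were −0.01, −0.04 and −0.01. Without wild-type replicates 2 and 4 the medians of the 10 turned to −0.12 in each of these comparisons. Scaled by library totals alone, 9, 8 and 10 of the 10 genes were called, all lower, in double KO versus wild type, Clpp KO versus wild type and double KO versus Fgf21 KO, where 85.5%, 77.6% and 70.5% of all genes were called lower. The median of the 10 was then −0.64, −0.53 and −0.72, beside −0.92, −0.79 and −0.70 for all genes.

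**Figure D4:**
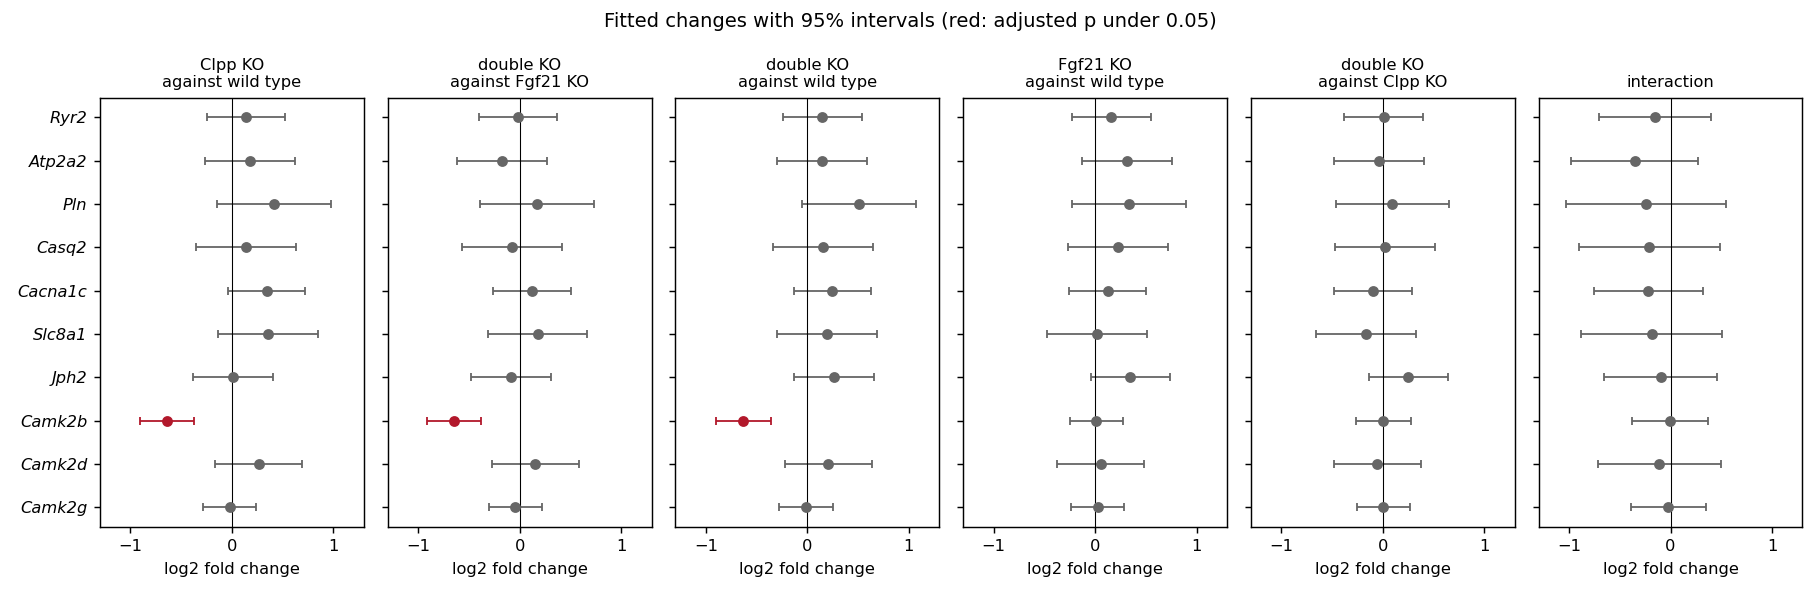
Log2 differences of the 10 genes in 6 comparisons with their 95% intervals from edgeR; red marks an adjusted p under 0.05 and the vertical line marks no difference. Camk2b is near −0.6 in the 3 comparisons in which the groups differ in Clpp and near 0 in the others, and the intervals of the other genes include 0 throughout.

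Over all 16 libraries the 9 genes other than Camk2b were correlated with each other, in part through wild-type replicates 2 and 4. The mean of the standardized log2 CPM of the 10 genes was −2.32 in wild-type replicate 2 and −0.67 in replicate 4, and between −0.46 and 0.73 in the other libraries. By Pearson correlation over 16 libraries, the closest companion of Slc8a1 was Camk2d (0.917), that of Ryr2 was Atp2a2 (0.893), that of Pln was Atp2a2 (0.857), that of Casq2 was Camk2d (0.85), that of Cacna1c was Ryr2 (0.821), that of Jph2 was Casq2 (0.771) and that of Camk2g was Camk2d (0.703). For Camk2b the highest was 0.00, with Jph2. Without wild-type replicates 2 and 4, the 2 libraries farthest from the median, the values over 14 libraries were 0.825 for Slc8a1 with Camk2d, 0.735 for Casq2 with Camk2d, 0.664 for Ryr2 with Atp2a2, 0.661 for Camk2g with Camk2d, 0.557 for Cacna1c with Ryr2, 0.448 for Jph2 with Casq2 and −0.23 for Pln with Atp2a2. Camk2b with Jph2 was at 0.338, above Pln, whose correlation rested on those 2 libraries. The genes outside the 10 closest to their mean were Efcab2 (0.955), Mfn2 (0.953), 2 gene entries named Celf1 (0.95 each) and Plekhb2 (0.949). The same genes had values of 0.721 to 0.776 over 14 libraries. Mfn2 encodes a protein of the mitochondrial outer membrane that joins mitochondria to each other and to the reticulum.

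The wider set of calcium handling genes gave no call in the edgeR fit used throughout, and a few under other settings. Of 96 genes in 8 lists, 94 were in the table and 92 were tested. None passed the test in any of the 6 comparisons in that fit. At an unadjusted p under 0.05 there were 23 in Clpp KO versus wild type (25% of the list genes, beside 21.3% of all genes), 4 in double KO versus Fgf21 KO (4.35% beside 7.09%) and 20 in double KO versus wild type (21.7% beside 22.8%), shares near those of all genes. There were 7 in Fgf21 KO versus wild type (9.17% of all genes), 0 in double KO versus Clpp KO (3.55%) and 2 in the interaction (1.96%). DESeq2 called 3 of the list genes in Clpp KO versus wild type (Stim1, Speg and Cacnb3), where it called 5.51% of all genes, and 7 in double KO versus wild type, where it called 6.33%. Limma voom called 27 in Clpp KO versus wild type, or 29.3% of the list genes beside 18.5% of all genes, and 3 in double KO versus wild type, where it called 6.32%. Both tools called 0 in the other 4 comparisons. Another edgeR fit took the mean log2 CPM of the atrial markers as a covariate. That fit called Cacnb3, Speg, Stim1 and Ppp1r3a in Clpp KO versus wild type (6.62% of all genes) and Strit1 in double KO versus Fgf21 KO (1.06%). With wild-type replicates 1 and 3 summed, edgeR called 3 list genes in Clpp KO (3.62% of all genes) and 4 in double KO (5.29%) versus wild type. Without wild-type replicate 1 these were 3 (3.25%) and 5 (5.6%), and without replicate 3 they were 3 (6.11%) and 6 (7.19%). The replicate block called Cacna1g in double KO versus wild type (1.08%). Library totals alone called 77, 74 and 82 list genes in Clpp KO versus wild type, double KO versus Fgf21 KO and double KO versus wild type. These were 83.7%, 80.4% and 89.1% of the list genes. Of all 15255 genes tested, 11933, 10858 and 13124 were called, with 77.6%, 70.5% and 85.5% called lower.

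Among partners of the release channel and proteins of the reticulum lumen (18 tested, median log2 difference −0.13 in Clpp KO versus wild type), the smallest p belonged to Stim1, the sensor of calcium in the reticulum. Stim1 averaged 10.9 ± 0.621 CPM in Clpp KO and 13.8 ± 1.38 CPM in wild type (log2 difference −0.34, adjusted p = 0.0642). In double KO versus Fgf21 KO it differed by −0.21 (adjusted p = 0.634). Itpr2, an inositol trisphosphate receptor, differed by −0.31 in Clpp KO versus wild type (adjusted p = 0.178). Hrc, a calcium-binding protein of the lumen, averaged 499.8 ± 43.7 CPM in double KO and 639 ± 98.5 CPM in Fgf21 KO (log2 difference −0.36, adjusted p = 0.743).

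For relatives and regulators of SERCA (9 tested, median −0.35), Ppp1r3a, a targeting subunit of protein phosphatase 1, averaged 49.8 ± 6.82 CPM in Clpp KO and 26.8 ± 13.4 CPM in wild type (log2 difference 0.89, adjusted p = 0.14). Strit1 encodes DWORF, a small peptide that relieves the pump of phospholamban. It averaged 3.33 ± 1.45 CPM in Clpp KO and 6.29 ± 3.67 CPM in wild type (−0.92, adjusted p = 0.217), and 4.97 ± 1.53 CPM in double KO against 9.12 ± 1.97 CPM in Fgf21 KO (−0.88, adjusted p = 0.701). Atp2a1, the pump of fast skeletal muscle, was at 0.474 ± 0.524 CPM in double KO and 1.26 ± 0.186 CPM in Fgf21 KO (−1.38, adjusted p = 0.716).

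Channel subunits and regulators at the surface membrane had the lowest median of the 8 lists in Clpp KO versus wild type (12 tested, −0.50). The median of this list was also below 0 in Fgf21 KO versus wild type, at −0.31, and was −0.19 in double KO versus Fgf21 KO. Cacnb3, a β subunit of voltage-gated calcium channels, averaged 2.54 ± 0.544 CPM in Clpp KO and 4.53 ± 1.51 CPM in wild type (−0.83, adjusted p = 0.083). Cacna1g, a T-type channel, differed by −0.63 in Clpp KO versus wild type (adjusted p = 0.177) and by −0.50 in double KO versus Fgf21 KO (adjusted p = 0.74). Cacnb1 differed by 0.24 in double KO versus Fgf21 KO (adjusted p = 0.762). Among exchangers and pumps (9 tested, median −0.13), Fxyd1, which encodes phospholemman, a regulator of the sodium pump, differed by −0.39 in Clpp KO versus wild type (adjusted p = 0.148). The plasma membrane pump gene Atp2b2 differed by −1.36 in the same comparison (adjusted p = 0.234), at 0.348 ± 0.118 CPM in Clpp KO and 0.902 ± 0.535 CPM in wild type. Atp2b2 differed by −1.40 (adjusted p = 0.716) and Atp2b4 by −0.34 (adjusted p = 0.783) in double KO versus Fgf21 KO.

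Dyad and T-tubule genes (8 tested, median −0.01) included Speg, a muscle kinase of the junctional membranes, at 109 ± 4.37 CPM in Clpp KO and 145 ± 21.7 CPM in wild type (−0.40, adjusted p = 0.066). Bin1, which shapes T-tubules, differed by −0.68 in Clpp KO versus wild type (adjusted p = 0.122) and by −0.47 in double KO versus Fgf21 KO (adjusted p = 0.708). Dysf, a membrane repair protein, differed by −0.27 in the second comparison (adjusted p = 0.754). Kinases, phosphatases and beta-adrenergic genes (21 tested, median 0.20) were led by the phosphodiesterase Pde4b at −0.48 (adjusted p = 0.146) and the beta1 receptor gene Adrb1 at 0.48 (adjusted p = 0.157), both in Clpp KO versus wild type. In double KO versus Fgf21 KO, Camk2n1, a CaMKII inhibitor, differed by −0.29 (adjusted p = 0.799).

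Mitochondrial calcium genes (10 tested, median 0.03) included Smdt1, a subunit of the mitochondrial uniporter, at −0.38 in Clpp KO versus wild type (adjusted p = 0.188) and −0.30 in double KO versus Fgf21 KO (adjusted p = 0.743). Mcub, a subunit that restrains the uniporter, differed by −0.72 in Clpp KO versus wild type (adjusted p = 0.2), and Micu3, a gatekeeper, by 0.31 in double KO versus Fgf21 KO (adjusted p = 0.697). In the thin filament list (5 tested, median −0.33) cardiac troponin I, encoded by Tnni3, differed by −0.33 in Clpp KO versus wild type (adjusted p = 0.238) and by −0.36 in double KO versus Fgf21 KO (adjusted p = 0.658). Tnnc1 differed by −0.34 in the first of these (adjusted p = 0.338) and Tnnt2 by −0.18 in the second (adjusted p = 0.864). The median of all genes tested was −0.04 in Clpp KO versus wild type and −0.01 in double KO versus Fgf21 KO.

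**Figure D5:**
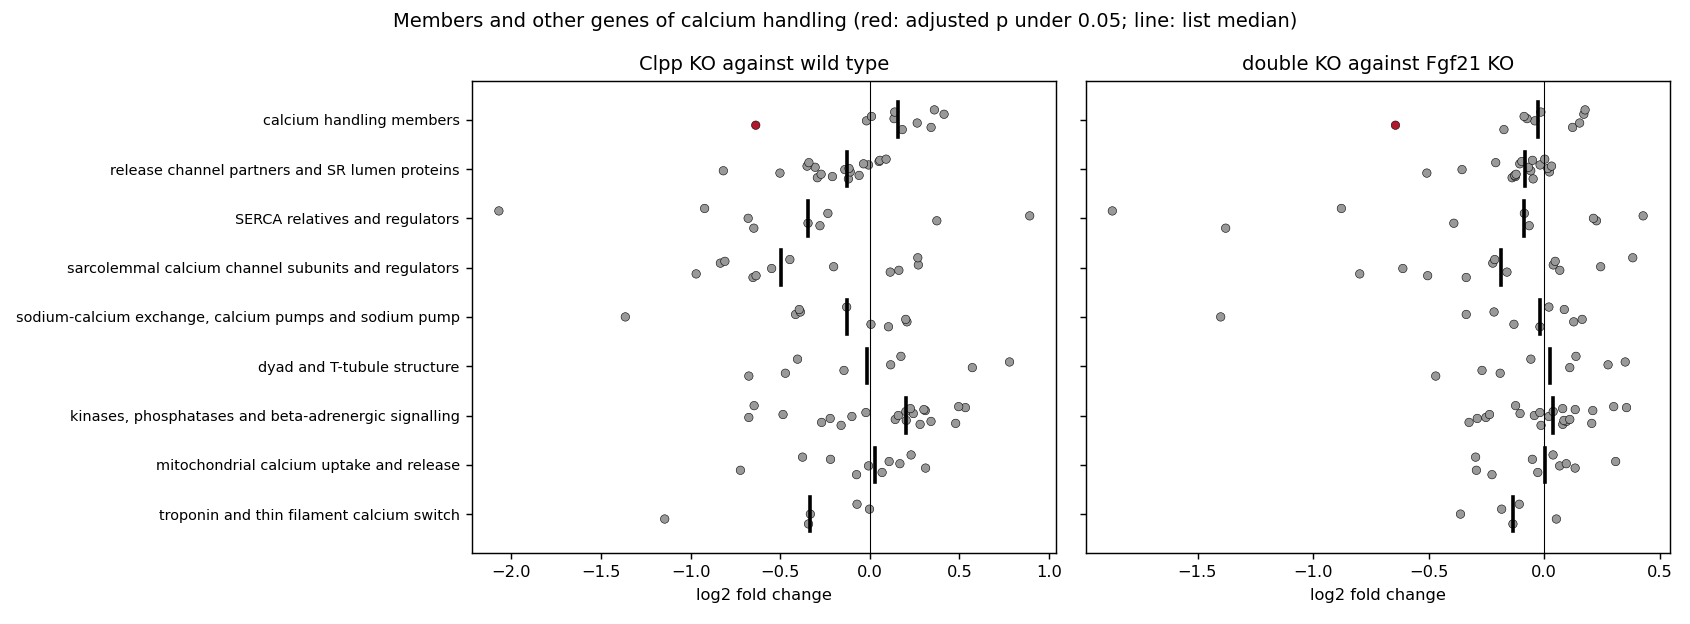
Log2 differences of the 10 genes (top row) and of the tested genes in 8 further lists of calcium handling, in Clpp KO versus wild type (left) and double KO versus Fgf21 KO (right); each point is a gene, the vertical bar is the median of its list, and red marks an adjusted p under 0.05. Camk2b is the only red point in both panels.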

How the data were processed

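RNA-seq of mouse cardiac tissue covered 4 genotypes with 4 libraries each, from stranded mRNA libraries per the labels' protocols. The deposited table holds counts per gene as whole numbers. Per the submitters' processing notes, the tools were fastp 0.21.0, kallisto 0.46.1, edgeR 3.32.1, DESeq2 1.30.1 and R 4.0.3, with build GRCm38.p6; the sources used here do not state how kallisto's estimates became whole counts. Reads matching several genes are shared between them by kallisto, which can move counts.

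Genes were kept by filterByExpr of edgeR 4.0.16 (count minimum 10, total minimum 15), scaled by TMM (factors 0.674 to 1.83) and fitted in 1 quasi-likelihood model with robust dispersion over all 16 libraries. Tests were two-sided, with Benjamini-Hochberg adjustment over 15255 genes and a threshold of 0.05. Errors after ± are standard errors for log2 differences and SD for levels. Ratios within a library were compared by exact permutation tests. Alternatives were DESeq2 1.42.0, limma 3.58.1 (voom), other scalings, no filter, a replicate block, an atrial covariate, and leaving out or summing libraries; the steps were tested on simulated counts. R 4.3.3 was used. Coordinates and 31-base words come from GENCODE M21, promoters from RefSeq.

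The 10 genes and the lists were chosen with earlier results of these data known. Named from each list are the 2 genes with the smallest p in Clpp KO versus wild type and in double KO versus Fgf21 KO where none was called, and, for likeness, the 5 genes with the highest correlation. A gene that this rule names is not reported here. Same-numbered libraries were checked for pairing: of 24 pairs, 4 had deviations correlated above 0.1 (range −0.23 to 0.36), so the numbers were not taken as pairs. With 203 to 667 counts per library, Camk2b has the largest counting error of the 10 genes; counts of reads without molecular identifiers are not counts of molecules.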

Additional observations from a re-analysis of the deposited data

Results flagged for a closer look

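Each group of 4 libraries was examined for a library far from the other 3, in 56 groups of values. Chance alone flags about 1 group in 20, and 2 were found. Atp2a2, the SERCA2 gene, was at 5150 CPM in Clpp KO replicate 4, while the other Clpp KO libraries ran from 5973 to 6008 CPM. Casq2, the calsequestrin gene, was at 232 CPM in wild-type replicate 2, while the other wild-type libraries ran from 460 to 491 CPM.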

How the results depend on the processing

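Camk2b kept its direction under every alternative in the 3 comparisons with Clpp loss, with log2 differences of −0.72 to −0.54 other than with library totals alone. Its call in double KO versus Fgf21 KO ended with the replicate block (adjusted p = 0.052), which left 0 of the 10 genes called there and 146 genes called in Clpp KO versus wild type; the block ended no other call among the 10. The labels' numbers did not pair the libraries.

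Library totals alone turned the sign of 17 differences that it then called, all to lower. These were, in Clpp KO versus wild type, Ryr2 (−0.56), Atp2a2 (−0.50), Casq2 (−0.55), Cacna1c (−0.37), Jph2 (−0.68) and Camk2d (−0.42); in double KO versus Fgf21 KO, Pln (−0.52), Cacna1c (−0.57), Slc8a1 (−0.49) and Camk2d (−0.52); in double KO versus wild type, Ryr2 (−0.70), Atp2a2 (−0.68), Casq2 (−0.67), Cacna1c (−0.61), Slc8a1 (−0.61), Jph2 (−0.57) and Camk2d (−0.62). With these totals 8, 10 and 9 of the 10 genes and 11933, 10858 and 13124 genes in all were called. Limma voom turned Jph2 in Clpp KO versus wild type to −0.25 and called 2 of the 10 there; the cause was not tested.

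Counts of all genes called moved more. DESeq2 called 841 in Clpp KO versus wild type, 34 in Fgf21 KO versus wild type, 35 in double KO versus Clpp KO, 209 in double KO versus Fgf21 KO, 966 in double KO versus wild type and 3 in the interaction. Voom called 2815, 111, 41, 370, 964 and 1 in the same order. Without wild-type replicates 2 and 4, 159, 15, 241 and 148 were called in Clpp KO versus wild type, double KO versus Clpp KO, double KO versus Fgf21 KO and double KO versus wild type, and 0 of the 10 genes against wild type. With wild-type replicates 1 and 3 summed, 562 were called in Clpp KO and 821 in double KO versus wild type. The atrial covariate gave 1010 in Clpp KO and 13 in Fgf21 KO versus wild type, and 1 in the interaction.

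Leaving out 1 library gave 114 to 949 genes in Clpp KO versus wild type, 129 to 1116 in double KO versus wild type, 94 to 160 in double KO versus Fgf21 KO, and 0 to 1 of the 10 genes in each. In both comparisons with wild type the highest counts came without wild-type replicate 3 and the next without replicate 1 (504 and 870). The Camk2d share difference in Clpp KO versus wild type ran from 4.86 to 9.08 points, and that of log2 Pln to Atp2a2 in double KO versus wild type from 0.35 to 0.53. Of 60 log2 differences, 28 changed sign without wild-type replicates 2 and 4 and 28 with voom, of which 0 and 1 were called.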
